A study of Mus musculus with 4 samples.

Results

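The 46 genes described here encode enzymes of amino acid catabolism and of the urea cycle, and were taken by symbol from a fixed list of named genes. That list was chosen with earlier results of these data known. All 46 were found among the 8797 genes with an expression value in the liver of F1 hybrid mice, and 26 of them were among the 3632 genes with a B6-allele frequency in every mouse. The 4 mice were females of 5 months, and the labels name no treatment. B6 (C57BL/6 J) and MSM (MSM/Ms) are inbred strains of different subspecies, and an F1 mouse inherits 1 full set of chromosomes from each strain. A pair of mice was born to MSM mothers and B6 fathers, and the other pair to B6 mothers and MSM fathers. The pure strains were not analysed here. Each cross had 2 biological replicates per the design text, and the sources do not say whether these shared a litter. Poly(A) RNA of whole liver was sequenced, so that fewer cells of a type and less RNA per cell cannot be told apart.

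The liver removes many of the amino acids that the diet supplies beyond need. Their amino groups are gathered by transaminases and glutamate dehydrogenase and leave the body as urea, which is built in the urea cycle from ammonia, carbon dioxide and aspartate. The carbon skeletons pass through pathways that end in intermediates of the citric acid cycle, in ketone bodies or in carbon units carried by folate, and inherited loss of many of these enzymes causes metabolic disease. Several enzymes of these pathways, such as Tat and Tdo2, are known to be induced by glucocorticoids.

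Expression was given in FPKM, in which the mapped fragments of a gene are scaled by transcript length and library size. The B6-allele frequency was given as a fraction, with 0.5 for equal use of both alleles, 1 for reads of the B6 allele alone and 0 for reads of the MSM allele alone. Read counts were not among the values, so the depth behind each value is unknown and no interval can be given for a frequency of a single mouse. The FPKM summed over all genes ranged from 529024 to 671875 per mouse, with the highest sum in MSM-mother replicate 1. Of 8 hepatocyte markers, 6 were listed, with a summed FPKM of 13460 to 18500 per mouse. Of 8 Kupffer cell and macrophage markers, 6 were listed, with 84.3 to 118. All 6 were higher in both mice of B6 mothers, as were 19.4% of all genes. The 6 sinusoidal endothelial markers summed to 121 to 140, 3 of 5 stellate cell markers to 71.0 to 97.2, and 4 of 5 erythroid markers to 128 to 769. Cd74 was the 1 listed marker of 5 for lymphocytes, with 95.8 to 209, and none of the 4 cholangiocyte markers or of the 4 pancreas and fat markers was among the genes analysed here.

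The enzymes of amino acid catabolism were among the most abundant mRNAs of these livers. Their median of the mean FPKM was 230.5, beside 11.5 over all genes, and 37 of the 46 stood in the top 10% of genes and 8 in the top 1%. The lowest was Mccc1 (29.2), a subunit of the carboxylase of leucine breakdown, which was still above 74.9% of all genes. Ranked by mean FPKM, the leading members were Gnmt, Hpd, Bhmt, Mat1a, Cps1, Ahcy, Tdo2 and Arg1. Of these, 4 (Gnmt, Bhmt, Mat1a and Ahcy) belong to the methionine cycle.

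The urea cycle was led by Cps1, the mitochondrial carbamoyl phosphate synthetase that brings ammonia into the cycle. The FPKM of Cps1 was 1522 and 1855 in mice of MSM mothers and 1731 and 1571 in mice of B6 mothers. These pairs overlapped. Arginase (Arg1), which releases urea, had 1084 and 1239 for MSM mothers and 748 and 885 for B6 mothers. Argininosuccinate lyase (Asl) had 579 and 648 against 422 and 434, and argininosuccinate synthetase (Ass1) had 276 and 178 against 157 and 105. In these 3 genes, both mice of MSM mothers were above both with a B6 mother, an order found in 23.0% of all genes. Nags, which makes the activator of Cps1, was expressed far lower, with 39.8 and 37.7 against 45.8 and 44.8, and its pairs were ordered the other way. Levels within the cycle therefore spanned 42.1 (Nags) to 1670 (Cps1) as means over the 4 mice.

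The methionine cycle held the highest value of all members. Gnmt, which uses S-adenosylmethionine to methylate glycine, had an FPKM of 4910 and 3428 in mice of MSM mothers and 2608 and 3192 in mice of B6 mothers. Mat1a, the liver enzyme that makes S-adenosylmethionine, had 1850 and 2178 against 1508 and 1618. The value of Ahcy, which hydrolyses S-adenosylhomocysteine, was 1538 and 1582 against 1161 and 1318. Bhmt, which remethylates homocysteine with betaine, had 3050 and 2144 against 1419 and 1239. In each of these 4 genes both mice of MSM mothers had the higher values, as in 23.0% of all genes. After quantile normalization this order held in Gnmt, Ahcy and Bhmt but not in Mat1a. How such counts moved with other scalings is given below. In transsulfuration, which turns homocysteine into cysteine, Cbs had 448 and 378 against 432 and 400, and Cth had 787 and 532 against 564 and 505, with overlapping pairs in both. Bhmt2, the paralog of Bhmt next to it on chromosome 13, had a mean of 97.3.

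Among the other pathways, tyrosine breakdown was led by Hpd, the 4-hydroxyphenylpyruvate dioxygenase, with an FPKM of 3475 and 3529 in mice of MSM mothers and 2962 and 3266 in mice of B6 mothers. Tat, the tyrosine aminotransferase that feeds it, had 749 and 1424 against 403 and 625, and the other 3 enzymes of the pathway (Hgd, Gstz1 and Fah) had means of 425 to 523. Tryptophan breakdown was led by Tdo2, the dioxygenase that opens the indole ring, with 1178 and 1442 against 706 and 733. The means of the later kynurenine enzymes Afmid, Kmo, Kynu and Haao were 93.3 to 347. The 4 genes of amino group transfer (Got1, Gpt, Glud1 and Agxt) lay between 329 and 431, the 3 of histidine breakdown (Hal, Uroc1 and Ftcd) between 141 and 268, and the 2 of proline breakdown (Prodh and Aldh4a1) at 143 and 207. The 9 genes of lysine, branched-chain amino acid and propionate breakdown ranged from 29.2 to 224, and the glycine cleavage enzymes Gldc and Amt were at 42.5 each.

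**Figure D1:**
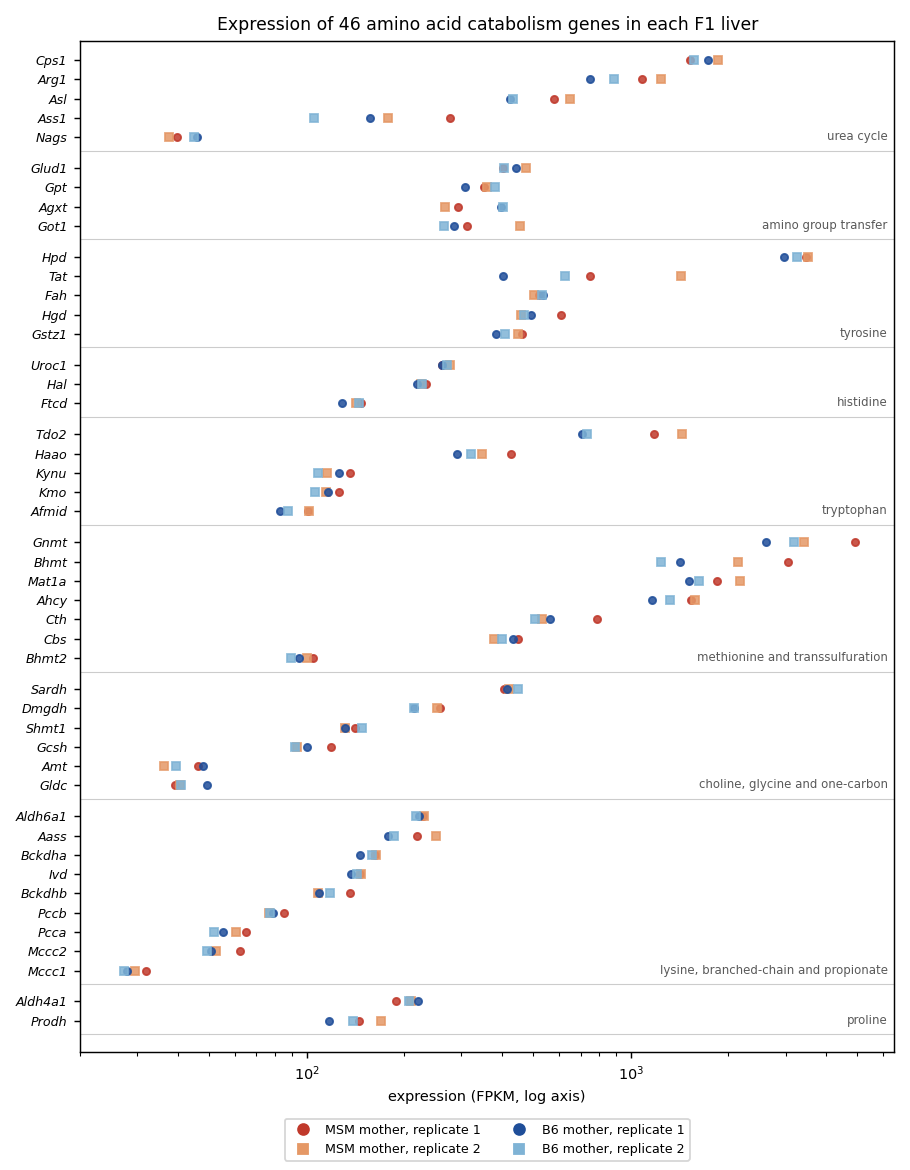
Expression of the 46 genes, grouped by pathway. The horizontal log axis gives the FPKM, and each point is 1 mouse. Means ran from 29.2 for Mccc1 to 3535 for Gnmt, and the 4 points of Tat were the most widely spread for their level.

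Between mice, the spread differed from gene to gene. The coefficient of variation over the 4 mice was 55.0% for Tat, whose highest value was 3.54 times its lowest, 41.9% for Bhmt, 40.0% for Ass1 and 35.2% for Tdo2. It was lowest, 2.62%, for Aldh6a1, the methylmalonate semialdehyde dehydrogenase of valine breakdown.

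A B6-allele frequency was available for members in some chromosome regions far more often than in others. Of the 21 members that begin beyond 100 Mb on chromosomes 1 to 15, or beyond 10 Mb on chromosomes 16 to 19, 19 (90.5%) had a frequency, as did 89.8% of all genes there. Of the 25 members that begin nearer to the start of the chromosome, 7 had one (28%, against 1.98% of all genes there). These were Cps1, Ass1, Tdo2, Sardh, Aass, Bckdha and Mccc2, and Mccc2 lies across the 100 Mb limit (chr13:99948530-100015639 in mm10). The 20 members without a frequency, among them Arg1, Bhmt, Mat1a, all of histidine breakdown and Gcsh and Ivd beyond the limit, could not be tested for allelic imbalance.

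Of the 26 members with a frequency, 9 differed from equal allele use (limma, log2 odds against 0, Benjamini-Hochberg adjusted over 3632 genes). In 5 the B6 allele was used more (Haao, Pccb, Gldc, Amt and Kmo) and in 4 the MSM allele (Cbs, Pcca, Tat and Mccc2). Over all genes, 22.6% were called toward B6 and 13.6% toward MSM, so that the 34.6% of members called was close to the 36.2% of all genes. All members had a mean FPKM of at least 10. Among the 2000 genes tested at that limit, 42.5% were called, and the members again gave 5 and 4. The biases were modest, with the favoured allele at 1.19 (Mccc2) to 1.79 (Haao) times the other, and 7 of the 9 means lay between 0.4 and 0.6. In all 9, the 4 mice were on the same side of 0.5. None of the 26 had a mean of at least 0.8 or at most 0.2, as 3.19% of all genes did. The calls rest on few mice. Without MSM-mother replicate 1 the test called 1 member toward B6 and 1 toward MSM, without MSM-mother replicate 2 it called 3 and 1, without B6-mother replicate 1 it called 0 and 0, and without B6-mother replicate 2 it called 1 and 0. That last 1 was Ass1, which is not among the 9. Of the 9, Haao and Cbs kept their calls with 1 or the other MSM-mother mouse left out. Gldc and Pccb kept theirs without MSM-mother replicate 2, and all other calls were lost. The log2 odds of all 9 kept their sign, as they had to with 4 mice on the same side of 0.5.

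**Figure D2:**
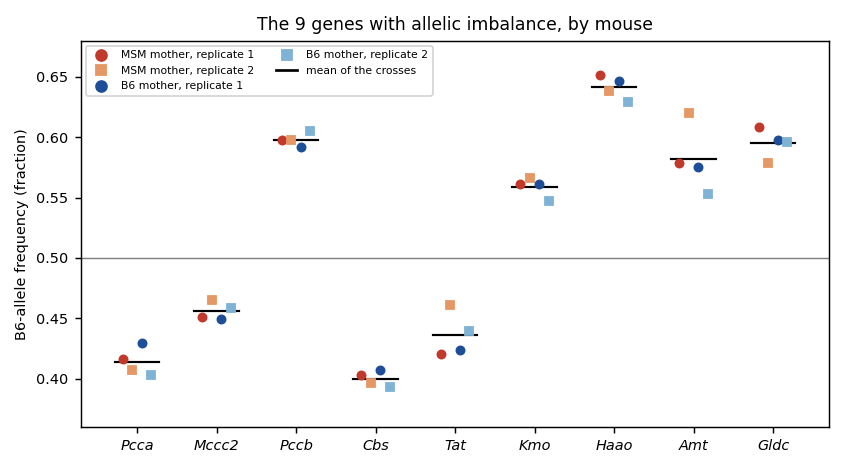
B6-allele frequency (vertical axis, fraction) of the 9 members with allelic imbalance. Points are single mice, black bars the mean of the crosses, and the grey line marks 0.5. The points of Haao sit between 0.629 and 0.652 and those of Cbs between 0.393 and 0.407.

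Haao, the 3-hydroxyanthranilate dioxygenase of the kynurenine pathway (chr17:83831156-83847963, minus strand), had the largest bias of the called members. Its B6-allele frequency was 0.652 and 0.638 in mice of MSM mothers and 0.647 and 0.629 in mice of B6 mothers. All 4 values stood above those of every other called member. The mean was 0.641 ± 0.00999 (SD, n = 4), and its log2 odds were 0.84 (SE 0.05, limma adjusted p = 0.00481). Kmo, the monooxygenase 2 steps before it (chr1:175620381-175662116), leaned the same way but less, at 0.561, 0.567, 0.561 and 0.547, and its log2 odds were 0.34 (SE 0.04, limma adjusted p = 0.0163). Afmid, the formamidase of the pathway, had a mean of 0.540 and did not pass the test (limma adjusted p = 0.0699).

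Cbs, which starts transsulfuration (chr17:31608894-31637238, minus strand), had the largest bias toward MSM among the called members. Its frequency was 0.403 and 0.397 in mice of MSM mothers and 0.407 and 0.393 in mice of B6 mothers. The range over mice was thus within 0.01 of its mean, 0.40 ± 0.00617 (SD, n = 4), and its log2 odds were -0.59 (SE 0.04, limma adjusted p = 0.00669). The next enzyme, Cth, had 0.509, 0.498, 0.472 and 0.516 and did not pass the test. Tat (chr8:109990437-109999803) leaned toward MSM at 0.420, 0.461, 0.423 and 0.440, and its log2 odds were -0.37 (SE 0.06, limma adjusted p = 0.0288). Of the other enzymes of tyrosine breakdown with a frequency, Hpd had a mean of 0.468 and Hgd of 0.506, and neither passed the test.

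The subunits of propionyl-CoA carboxylase, which makes methylmalonyl-CoA in the breakdown of valine, isoleucine, methionine and threonine, leaned in opposite directions. Pccb, the beta subunit (chr9:100982032-101034898, minus strand), had a frequency of 0.597 and 0.598 in mice of MSM mothers and 0.592 and 0.605 in mice of B6 mothers, and its log2 odds were 0.57 (SE 0.04, limma adjusted p = 0.00669). Pcca, the alpha subunit that carries biotin (chr14:122534324-122891100), had 0.416, 0.407, 0.429 and 0.403, and its log2 odds were -0.50 (SE 0.05, limma adjusted p = 0.0112). In every mouse Pccb was above Pcca, by 0.162 to 0.202 in frequency. The paired difference was 1.08 on the log2 odds scale (SD 0.0994, n = 4, exact sign-flip permutation p = 0.125, the smallest that 4 mice allow). This pair was singled out after its values were seen. The related carboxylase of leucine breakdown had a frequency for 1 subunit, Mccc2, at 0.451, 0.465, 0.449 and 0.459, and its log2 odds were -0.25 (SE 0.04, limma adjusted p = 0.0293).

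Both measured members of the glycine cleavage system leaned toward B6. Gldc, its decarboxylase (chr19:30098447-30175429, minus strand), had a frequency of 0.608 and 0.579 in mice of MSM mothers and 0.598 and 0.596 in mice of B6 mothers, and its log2 odds were 0.56 (SE 0.05, limma adjusted p = 0.00995). Amt, its aminomethyltransferase (chr9:108296853-108302302), had 0.579, 0.620, 0.575 and 0.553, and its log2 odds were 0.48 (SE 0.07, limma adjusted p = 0.0200). The mean FPKM of both was 42.5, among the lowest of the members.

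The promoters of the most biased member in each direction and of the oppositely biased subunits are shown, as the 250 bases before the RefSeq start in GRCm38.p6, the assembly also called mm10, which carries the B6 allele. The MSM sequence was not analysed here. They are written 5′ to 3′ on the strand of the gene. Capitals mark matches on either strand to the TATA box (TATAAA), the CCAAT box (CCAAT) and the GC box (GGGCGG).
Haao (chr17:83846791-83847040, minus strand): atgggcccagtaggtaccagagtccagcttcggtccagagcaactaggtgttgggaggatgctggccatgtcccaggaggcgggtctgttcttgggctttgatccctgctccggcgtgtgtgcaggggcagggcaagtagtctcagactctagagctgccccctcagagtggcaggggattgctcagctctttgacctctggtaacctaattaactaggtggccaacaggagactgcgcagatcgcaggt
Cbs (chr17:31637206-31637455, minus strand): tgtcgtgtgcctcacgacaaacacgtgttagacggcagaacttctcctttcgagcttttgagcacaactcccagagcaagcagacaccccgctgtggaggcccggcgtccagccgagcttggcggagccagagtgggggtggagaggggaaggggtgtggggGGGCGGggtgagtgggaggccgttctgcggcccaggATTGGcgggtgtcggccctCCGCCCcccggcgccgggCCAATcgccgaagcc
Pccb (chr9:101034885-101035134, minus strand): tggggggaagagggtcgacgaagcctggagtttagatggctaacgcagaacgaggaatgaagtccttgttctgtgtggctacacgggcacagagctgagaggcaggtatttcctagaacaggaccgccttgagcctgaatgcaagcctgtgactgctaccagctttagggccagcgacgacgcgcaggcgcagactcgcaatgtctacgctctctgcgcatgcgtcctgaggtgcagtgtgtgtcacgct
Pcca (chr14:122534078-122534327): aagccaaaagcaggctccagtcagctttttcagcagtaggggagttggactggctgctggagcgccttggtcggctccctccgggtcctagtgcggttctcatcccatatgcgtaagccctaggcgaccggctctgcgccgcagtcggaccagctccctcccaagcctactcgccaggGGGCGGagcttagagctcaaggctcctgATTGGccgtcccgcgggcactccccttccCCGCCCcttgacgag
The Cbs window held 2 CCAAT and 2 GGGCGG matches and the Pcca window 1 and 2, while these letters were not in the windows of Haao and Pccb. These 4 windows do not stand for the direction of bias. Gldc and Amt, called toward B6, each held 1 and 1, and Tat and Mccc2, called toward MSM, each held 3 and 0. Kmo, called toward B6, held 0 and 0. The RefSeq start of Haao lies 1173 bases from its GENCODE start and that of Kmo 11812 bases. Of the 39 members with a promoter in the RefSeq table, 23 held CCAAT (59.0%, against 34.2% of 27025 promoters), 18 held GGGCGG (46.2%, against 32.7%) and 4 held TATAAA (10.3%, against 12.9%). Of the 9 members with allelic imbalance, 6, 4 and 0 held them. The median GC content was 57.6% in the members and 52.0% in all promoters. The 27025 promoters cover all genes of the RefSeq table, whether or not they had an expression value here. Where a member had several RefSeq starts, the one nearest to its GENCODE start was taken. For other genes the window of lowest coordinate was taken, so these shares compare windows that were not chosen alike. A match is a string of letters in these windows and was not tested as a binding site.

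Among the 17 members that did not pass the test, 11 had a 95% interval of the frequency that lay within 0.4 to 0.6. A larger bias was outside these intervals, but they rest on the spread between mice alone. They do not account for how few reads a frequency may rest on, which is unknown. The 11 included the urea cycle genes Cps1 (0.502, interval 0.458 to 0.545), Asl (0.511, 0.478 to 0.544) and Nags (0.530, 0.497 to 0.562). Of these, Cps1 begins nearer to the start of its chromosome, where few genes had a frequency. Gnmt, the most abundant member, had 0.406 and 0.538 in mice of MSM mothers and 0.5 and 0.543 in mice of B6 mothers. Its interval of 0.413 to 0.581 was the widest of the 11, with that of Cps1 next. Got1, the cytosolic aspartate aminotransferase, had a mean of 0.468. The proline enzymes Prodh (0.515) and Aldh4a1 (0.523) had SDs of 0.0142 and 0.00957 over the 4 mice. The median frequency of the 26 members was 0.513, beside 0.510 for all genes, and 20 (76.9%) had a mean between 0.4 and 0.6, beside 79.0% of all genes.

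For the other 6 members the frequency varied too much between mice to place the allele ratio. In Tdo2 it was 0.333 and 0 in mice of MSM mothers and 0.5 and 0 in mice of B6 mothers. In Aass, the first enzyme of lysine breakdown, it was 0.8 and 1 against 0.333 and 0, and in Bckdha, a subunit of the branched-chain ketoacid dehydrogenase, it was 1 and 0.5 against 0.5 and 0. The mean FPKM of these 3 genes was 158 (Bckdha), 209 (Aass) and 1015 (Tdo2), and 9 of their 12 frequencies were exactly 0, 0.5 or 1, against 1 of 92 in the other members. How many reads lie behind these values is unknown, and that they rest on more than 10 reads could not be checked. Sardh, the sarcosine dehydrogenase, had 0.733, 0.571, 0.6 and 0.786, all above 0.5 (limma adjusted p = 0.0839), and Ahcy had 0.610, 0.714, 0.435 and 0.704. In Ass1 the frequency was 0.534 and 0.501 against 1.00 and 0.518, with B6-mother replicate 1 alone near 1. Ranges over 0.2 occurred in these 6 of 26 members (23.1%, against 8.51% of all genes), and 5 of them were among the 7 members nearer to the start of the chromosome. For Ass1, 94.1% of the transcript matched another place of the genome at 99.2% identity, and for Ahcy 93.0% at 98.7%. Reads of these genes can therefore be placed at a copy, which limits their FPKM as well as their frequency. Such copies, of at least 150 bases at 95% identity or more, were found for 7 of the 46 members (Ass1, Ahcy, Bhmt, Bhmt2, Gcsh, Glud1 and Cth) and for 0 of the 9 with allelic imbalance. Kmo overlaps Fh1, Pcca overlaps Ggact and Gm49259, and Gldc overlaps Rpl31-ps20, each on the opposite strand. Pcca also overlaps Gm49260 on the same strand. The authors used a directional library kit and a stranded alignment option, but the strand setting of the counting was not given in the sources used here.

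**Figure D3:**
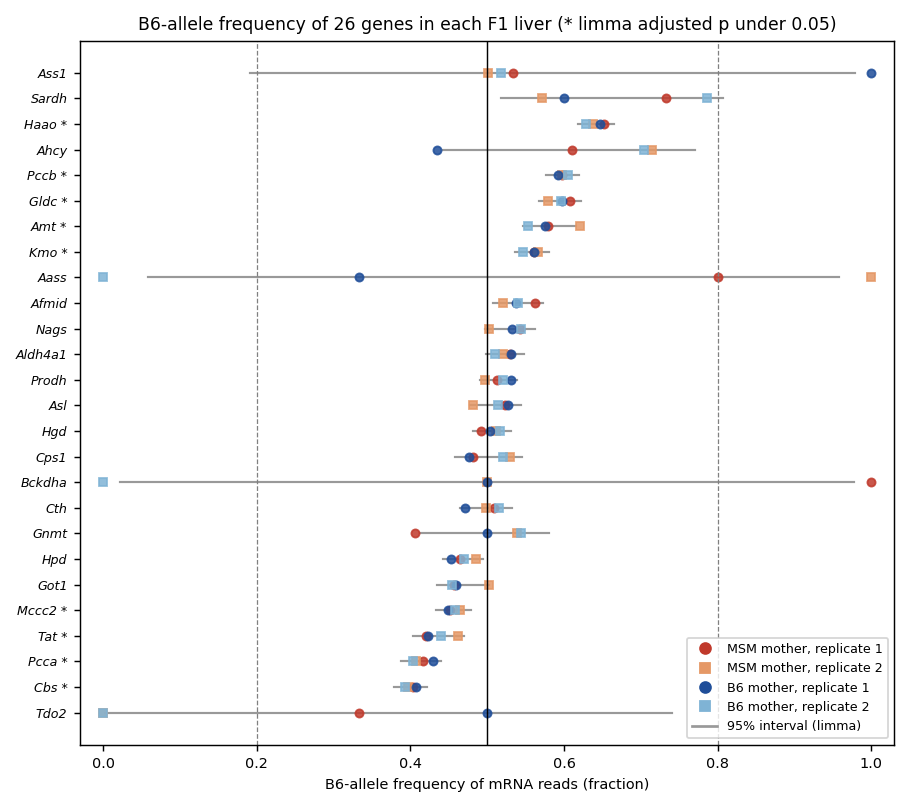
B6-allele frequency (horizontal axis, fraction) of the 26 members in each mouse, with the limma 95% interval of the mean as a grey bar. The solid line marks 0.5, the dashed lines 0.2 and 0.8, and asterisks the 9 members past the test. Tdo2, Aass and Bckdha spread over 0.5 or more, while Pccb, Cbs and Mccc2 spread over less than 0.02.

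Reciprocal crosses separate the strain of an allele from the parent that gave it. Among the 26 members, the B6-allele frequency differed between the crosses in 0 (smallest limma adjusted p = 0.873), and 0 had an unadjusted p under 0.05. Over all genes 0.0826% were called and 5.23% had an unadjusted p under 0.05. In all 9 members with allelic imbalance the mean of each cross was on the same side of 0.5. It had to be, since every mouse was on that side, so this is no separate test of the parent. In Haao, for example, the cross means came from 0.652 and 0.638 against 0.647 and 0.629, and these overlapped. With 2 mice per cross, the smallest p that an exact permutation test can give is 0.333.

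Total expression was then compared between the crosses. None of the 46 members passed the test (limma with trend on log2(FPKM + 1), smallest adjusted p = 0.354), as 0.0455% of all genes did. At an unadjusted p under 0.05, 6 members were higher with an MSM mother (Tdo2, Bhmt, Asl, Tat, Ass1 and Arg1), beside 4.46% of all genes, and 1 was higher with a B6 mother (Agxt), beside 4.41%. The median half-width of the 95% intervals was 0.40 on the log2 scale. These intervals are not adjusted for the number of genes.

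The largest differences were in Tat, Bhmt and Tdo2, whose values in each mouse are given above. For Bhmt, 75.2% of the transcript matched another place of the genome at 99.5% identity, so its reads can be placed at a copy. On the log2(FPKM + 1) scale, with an MSM mother minus a B6 mother, Tat differed by 1.04 (SE 0.37, limma adjusted p = 0.531), Bhmt by 0.95 (SE 0.24, limma adjusted p = 0.427) and Tdo2 by 0.86 (SE 0.19, limma adjusted p = 0.354). Tat was highest in MSM-mother replicate 2, as were Got1, with 454 against 265 to 313 in the other mice, and 2 of 4 periportal markers, Sds (583 against 214 to 352) and Pck1 (2045 against 405 to 990). The other 2 were not, with Cyp2f2 lowest in that mouse (873 against 901 to 1045) and Hsd17b13 at 168 against 143 to 189. The difference of Tat was 0.58 without MSM-mother replicate 2 and 1.5 without MSM-mother replicate 1. In the opposite direction, Agxt, which turns glyoxylate into glycine, had an FPKM of 292 and 267 for MSM mothers and 397 and 404 for B6 mothers, and differed by -0.52 (SE 0.16, limma adjusted p = 0.472). Nags differed by -0.22 (SE 0.12, limma adjusted p = 0.622). Gldc differed by -0.16 (SE 0.14, limma adjusted p = 0.708), with 39.3 and 40.6 against 49.3 and 40.8, and by -0.03 without B6-mother replicate 1 and -0.30 without B6-mother replicate 2.

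Although no single member passed the test, the pairs of mice did not overlap in 28 of the 46. In 24 members (52.2%) both mice of MSM mothers were above both with a B6 mother, as in 23.0% of all genes, and in 4 (Agxt, Nags, Fah and Gldc) both with a B6 mother were above, as in 19.4% of all genes. This count depended on how the mice were scaled to each other. It was 22 and 3 after median-ratio scaling (21.6% and 21.1% of all genes), 13 and 3 after quantile normalization (21.8% and 21.8%), and 8 and 6 when each value was taken as a share of the mouse's total FPKM (10.9% and 25.6%). The median log2 ratio of the members was, in the same order, 0.149, 0.127, 0.0473 and 0.00626, beside 0.0249, 0.00466, 0.00326 and -0.0977 for all genes. Under quantile normalization, the estimated difference of 9 members changed sign (Aldh6a1, Bckdha, Glud1, Gpt, Hal, Hpd, Ivd, Pccb and Uroc1), whereas Tat, Bhmt, Tdo2, Ass1, Asl and Arg1 were still separated by cross. The FPKM summed over the 46 members was 28452 and 27460 in mice of MSM mothers and 21328 and 22514 in mice of B6 mothers, which was 4.23%, 5.09%, 4.03% and 3.93% of the total. MSM-mother replicate 1 had the highest value in 20 members (43.5%, against 39.1% of all genes) and MSM-mother replicate 2 in 17 (37.0%, against 21.5%).

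Markers of cell types and liver zones were read in the same mice. The Kupffer cell and macrophage markers summed to 91.7 and 84.3 for MSM mothers and 118 and 117 for B6 mothers. Sinusoidal endothelial markers had 127 and 121 against 133 and 140, Cd74 had 106 and 95.8 against 209 and 160, and erythroid markers 308 and 128 against 769 and 449. Higher with MSM mothers were the sums of hepatocyte markers, at 18500 and 16860 against 13460 and 16610, and of stellate cell markers, at 97.2 and 86.5 against 71.0 and 77.6. Periportal markers, for the zone where the urea cycle is most active, summed to 2569 and 3669 against 1686 and 2221, a sum carried by Pck1 and Sds, while the pairs of mice overlapped in Cyp2f2 and Hsd17b13. In the pericentral zone, both mice of MSM mothers were above in 4 of 5 markers, as in 23.0% of all genes. The order of the markers was read on the FPKM as given and not under other scalings. These 4 pericentral markers summed to 2089 and 2035 against 1423 and 1549. The fifth, Cyp2e1, which was listed at 0 in both mice of MSM mothers and at 4876 and 6541 in mice of B6 mothers, was left out of this sum, since such a 0 can be a failed estimate and is not read as a difference between the crosses. The part of these differences in the values of the members was not tested.

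**Figure D4:**
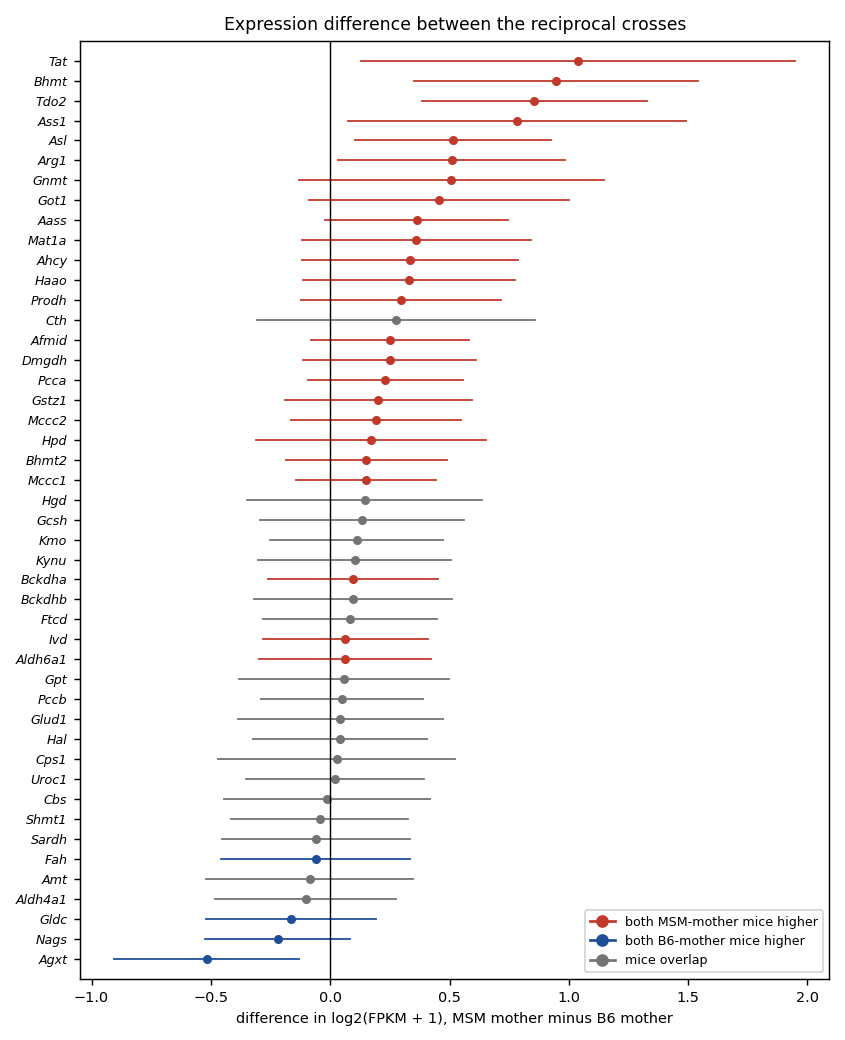
Difference in log2(FPKM + 1) of each of the 46 members between the crosses, with an MSM mother minus a B6 mother (horizontal axis). Bars are 95% limma intervals and colours give whether the pairs of mice overlapped. The estimates run from -0.52 (Agxt) to 1.04 (Tat), and none passed the test after adjustment.

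Other genes of amino acid metabolism were read in the same way. Of 85 symbols looked up, 70 were listed, and 28 had a frequency. Allelic imbalance was called in 14 of these (against 36.2% of all genes), 6 toward B6 and 8 toward MSM. Toward B6, they included Suox, which oxidizes the sulfite formed from cysteine (log2 odds 1.16, SE 0.05), Ccbl2, a kynurenine aminotransferase (0.83, SE 0.05) and Oat, the ornithine aminotransferase (0.57, SE 0.04). Toward MSM, the largest log2 odds were those of Acmsd (-1.76, SE 0.13), the glycolate oxidase Hao1 (-0.77, SE 0.09) and the serine dehydratases Sdsl (-0.52, SE 0.06) and Sds (-0.45, SE 0.07). The limma adjusted p of these 7 genes was 0.00384 to 0.0203. Acmsd acts on the product of Haao, and its frequency of 0.232, 0.210, 0.275 and 0.2 stood on the other side of 0.5 from the 0.629 to 0.652 of Haao. This pair, too, was singled out after its values were seen. Expression differed between the crosses in 0 of the 70 (limma). At an unadjusted p under 0.05, 8 were higher with MSM mothers (against 4.46% of all genes) and 0 with B6 mothers. Both mice of MSM mothers were higher in 36 (51.4%, against 23.0% of all genes) and both of B6 mothers in 5 (against 19.4% of all genes). These counts also moved with the scaling. Of the 70, they were 36 and 4 after median-ratio scaling (against 21.6% and 21.1% of all genes). After quantile normalization they were 23 and 11 (against 21.8% and 21.8%), and as shares of the total FPKM 20 and 7 (against 10.9% and 25.6%).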

How the data were processed

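Poly(A) RNA of 4 F1 livers was measured, 2 per reciprocal cross, and titles of the samples gave the groups. After trimming (Trim Galore!) and alignment (TopHat2, mm10 with SNP sites masked, at most 1 place per read), the authors deposited FPKM per gene. The authors also separated reads by allele with SNPsplit and deposited the B6-allele frequency as a fraction, stated where over 10 reads discriminated the alleles. The number of reads behind each fraction is unknown. Tool versions are not given in the sources used here. Read counts were not analysed here, so no count test was run and the precision rests on the spread between mice.

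Log2 odds were taken of the frequency, with values beyond 0.01 or 0.99 set to these limits. limma 3.58.1 in R 4.3.3 was fitted on all 3632 genes with a frequency in all 4 mice, with the intercept as the mean of the crosses and a cross term. Expression was fitted with limma-trend on log2(FPKM + 1) over 8797 genes (mean FPKM of at least 1, which removed none), a scale that understates changes of low genes. Tests were two-sided and adjusted by Benjamini-Hochberg at 0.05. The scripts were first tried on simulated data. Positions came from GENCODE M21 and RefSeq for mm10, and copies from minimap2 2.31-r1302. Python 3.11.15 handled tables and plots.

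The members and all gene and marker lists were chosen with earlier results of these data known. Full statistics were given for at most 6 called members in each direction, for members past 0.8 or 0.2, for any called between the crosses and for the 3 largest expression differences in each direction. FPKM per mouse was given for the 10 most abundant members and the urea cycle, and at most 4 related genes in each direction were named. A related gene is left out of the text and not reported here. The scaling alternatives on shares of the total, the pair of carboxylase subunits, the pair of Haao and Acmsd, the members with wide ranges and the copies were looked at after values were seen. The alternatives concerned the limits, the scale, filters, thresholds, normalization, the pseudocount, blocking by replicate number and leaving out each mouse.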

Additional observations from a re-analysis of the deposited data

Results flagged for a closer look

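The 4 mice were checked for single values far from the rest, in 26 genes for the frequency and 46 for the FPKM, by the gap of the highest or lowest mouse divided by the range (Dixon's criterion). Of these 72 groups 3 passed, and chance alone passes about 1 in 20. The B6-allele frequency of Ass1 was 1.00 in B6-mother replicate 1, with a gap of 0.934 of the range to the other mice at 0.501 to 0.534. That of Got1 was 0.502 in MSM-mother replicate 2, with a gap of 0.911 to the others at 0.455 to 0.459. The FPKM of Gldc was 49.3 in B6-mother replicate 1, with a gap of 0.843 to the others at 39.3 to 40.8.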

How the results depend on the processing

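The count of 5 members called toward B6 and 4 toward MSM was 3 and 1 at an adjusted p under 0.01, and 1 and 1 where the mean also had to lie outside 0.4 to 0.6. It ranged from 0 to 3 toward B6 and from 0 to 1 toward MSM when each mouse was left out in turn, with 30 of 36 single calls lost and 181 to 514 of all genes called, against 1316. Leaving out a mouse leaves a cross with 1 mouse, which is then assumed to vary like the others. Centring each mouse to a median of 0 gave 5 and 5, with Hpd added (limma adjusted p = 0.0432). For the 9 called members, other than in leaving out a mouse, 67 of 71 recomputed values stayed past the threshold, and the 4 that did not kept their direction. The number of members past 0.8 or 0.2 was 0, but 1 with thresholds of 0.7 and 0.3, 4 where a single mouse was enough, and 0 to 1 when each mouse was left out. With a mean FPKM of at least 10, 850 of 2000 genes were called (42.5%). None of these results changed direction, while the estimated expression difference of 9 members changed sign under quantile normalization and that of Uroc1 under median-ratio scaling.

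The sources do not say that equal replicate numbers share anything, and deviations of same-numbered mice correlated by 0.146 (log2 odds) and 0.00375 (log2(FPKM + 1)) across genes, with 2 pairs. With the replicate number as a block, 3 members were called toward B6 and 3 toward MSM (Cbs, Pcca and Tdo2). Amt, Kmo, Tat and Mccc2 lost their calls (limma adjusted p = 0.0643, 0.0573, 0.0559 and 0.074), and Tdo2 was gained. With the block, all genes called numbered 775. For expression the block called 1 member, Tat (limma adjusted p = 0.0423), against 0 without it, and 285 genes against 4. Expression called 0 members under every other alternative, whereas all genes called were 0 after genes with an FPKM of 0 were left out, a choice made after seeing the data, and 13 to 21 when a mouse was left out. For the frequency between crosses, 0 members were called under each alternative, and all genes called were 0 to 6. The unknown depth limits Tdo2, Aass and Bckdha most.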
